A study of Mus musculus with 6 samples.

Results

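The genes described here make ribosomes or are classic targets of the transcription factor Myc. They are 34 mouse genes chosen by name, and 31 of them, of 12393 genes on the array, had at least 1 probe set that the platform annotation assigns to that gene alone. A probe set is the group of short oligonucleotides that reads 1 transcript. Each gene was read from its brightest probe set, judged by the mean of the 6 arrays. Npm3 and Dkc1 had 0 probe sets of their own, and the 1 probe set of Mrto4 also lists 2 pseudogenes, so these 3 genes were not analysed here.

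RNA was measured in regulatory T cells (Treg), the T cells that restrain immune responses, with 3 arrays from fl-p300/Foxp3cre mice and 3 from Foxp3cre control mice. Both groups carried the Foxp3cre allele, which expresses Cre recombinase where Foxp3 is active, and in the first group Cre deletes p300, a histone acetyltransferase encoded by Ep300. All mice were C57Bl/6, and the samples were CD4+CD25+ cells separated magnetically, a population that can also hold activated T cells without Foxp3. Titles number the samples 1 to 3 in each group and call the controls WT. The labels call the samples independent but give neither age, sex nor tissue of origin, and do not say that each sample is a different animal. The p-values therefore cover only how far these samples vary, and that variation may be technical.

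For Ep300 itself the annotation lists 0 probe sets, and the deletion could not be checked on these arrays. Foxp3, the lineage factor of Treg, was at 2.57, 3.04 and 3.15 in the p300-deleted arrays and at 9.63, 9.35 and 9.39 in controls, on the log2 scale of all values here (limma adjusted p = 4.36e-07). The p300-deleted values lay under the limit of 3.91 below which genes were left out as dim, so the difference is given as a bound, at least 5.55 lower than in controls. For scale, probe sets for bacterial transcripts had array medians of 2.23 to 2.38. The other 4 Treg markers, Il2ra, Ctla4, Ikzf2 and Tnfrsf18, did not pass the test, with differences of 0.25, 0.30, 0.60 and -0.16. The T cell genes Cd3d, Cd3e and Cd3g were above 11 on every array. All 6 tested T cell markers lay higher in p300-deleted arrays, with a median of 0.22, and 0 passed. For 4 of them (66.7%) the groups did not overlap, against 10.5% of all genes in that direction. Of other markers, 5 of 7 for plasma cells, 6 of 6 for mast cells and basophils and 1 of 4 for NK cells rose. Over all genes tested 0.991% rose. In limma 0 of 4 for B cells, 0 of 6 for myeloid cells, 0 of 2 for CD8 T cells and 0 of 1 for erythroid cells passed.

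Ribosomes are assembled in the nucleolus. RNA polymerase I transcribes the precursor of the ribosomal RNAs, and small nucleolar ribonucleoproteins (snoRNPs) guide the chemical modification of its nucleotides. Assembly factors cut, fold and package it with ribosomal proteins into the large and small subunits. Myc, as a dimer with Max, binds the E-box motif CACGTG and drives many of these genes when lymphocytes are activated and grow, and Treg raise the same programme when they divide.

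Sequence stretches around the E-box are shown first, because the motif is the link between Myc and the genes it drives. In RefSeq promoters of build GRCm38.p6, from 250 bases before to 50 after each gene's start, 29 of the 34 genes had an entry, and the search used CACGTG, which reads the same on both strands. It was found in 7 of the 29, or 24.1%, against 8.09% of 27025 genes with a promoter and 12.0% of the 7058 tested genes with one. The 30-base stretches run 5′ to 3′ on the strand of the gene, capitals mark the motif, and the genes stand in order of their difference between groups, lowest first.
Mybbp1a, chr11:72441347-72441376, plus strand: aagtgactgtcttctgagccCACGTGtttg
Nop2, chr6:125131811-125131840, plus strand: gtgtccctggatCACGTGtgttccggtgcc
Grwd1, chr7:45830740-45830769, minus strand: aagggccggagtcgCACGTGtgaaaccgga
Tsr1, chr11:74898092-74898121, plus strand: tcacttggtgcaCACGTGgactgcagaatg
Imp4, chr1:34439696-34439725, plus strand: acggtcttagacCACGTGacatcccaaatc
Pes1, chr11:3963965-3963994, plus strand: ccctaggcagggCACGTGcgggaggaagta
Wdr43, chr17:71616220-71616249, plus strand: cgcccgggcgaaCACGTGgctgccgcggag
Counted from the start, the motif's first base was at -60 in Nop2 and -121 in Imp4, and in the other 5 genes it was between 3 and 41, inside the transcript. The variant CACGCG, or CGCGTG on the other strand, which does not overlap CACGTG, was in 9 of the 29 genes (31.0%) and in 20.3% of tested genes with a promoter. A match describes these letters only and is no evidence of binding.

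Against controls, 30 of the 31 genes lay lower in p300-deleted cells and 1, Ncl, lay higher, but 0 passed the test over all genes. The share lying lower was 96.8% in the list and 55.0% over all genes tested. Differences are p300-deleted minus control, and a gene was called changed at a Benjamini-Hochberg adjusted p under 0.05 in limma, over the 8675 genes left after the dimmest 30% were removed. All 31 genes passed that filter. Of all genes tested, 1.72% were called, 0.726% as lower and 0.991% as higher. The median difference of the 31 genes was -0.23, with a middle range from -0.31 to -0.13, while the median over all genes was -0.03. At the looser threshold of an adjusted p under 0.1, 2 of the 31 genes, Nhp2 and Nolc1, were called, and 4.60% of all genes.

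Without adjustment, 9 of the 31 genes had a p under 0.05 in the lower direction and 0 in the higher, which is 29.0% against 9.89% of all genes in the lower direction. For 13 genes, 41.9%, all p300-deleted arrays lay below all controls, against 13.2% of all genes. For 0 of the 31 genes did they all lie above, where 10.5% of all genes did. The genes share the same 6 arrays, so these counts describe the list and are not 31 separate observations. The genes were also chosen with earlier results of these data known, so the comparison with all genes is no test of the list.

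**Figure D1:**
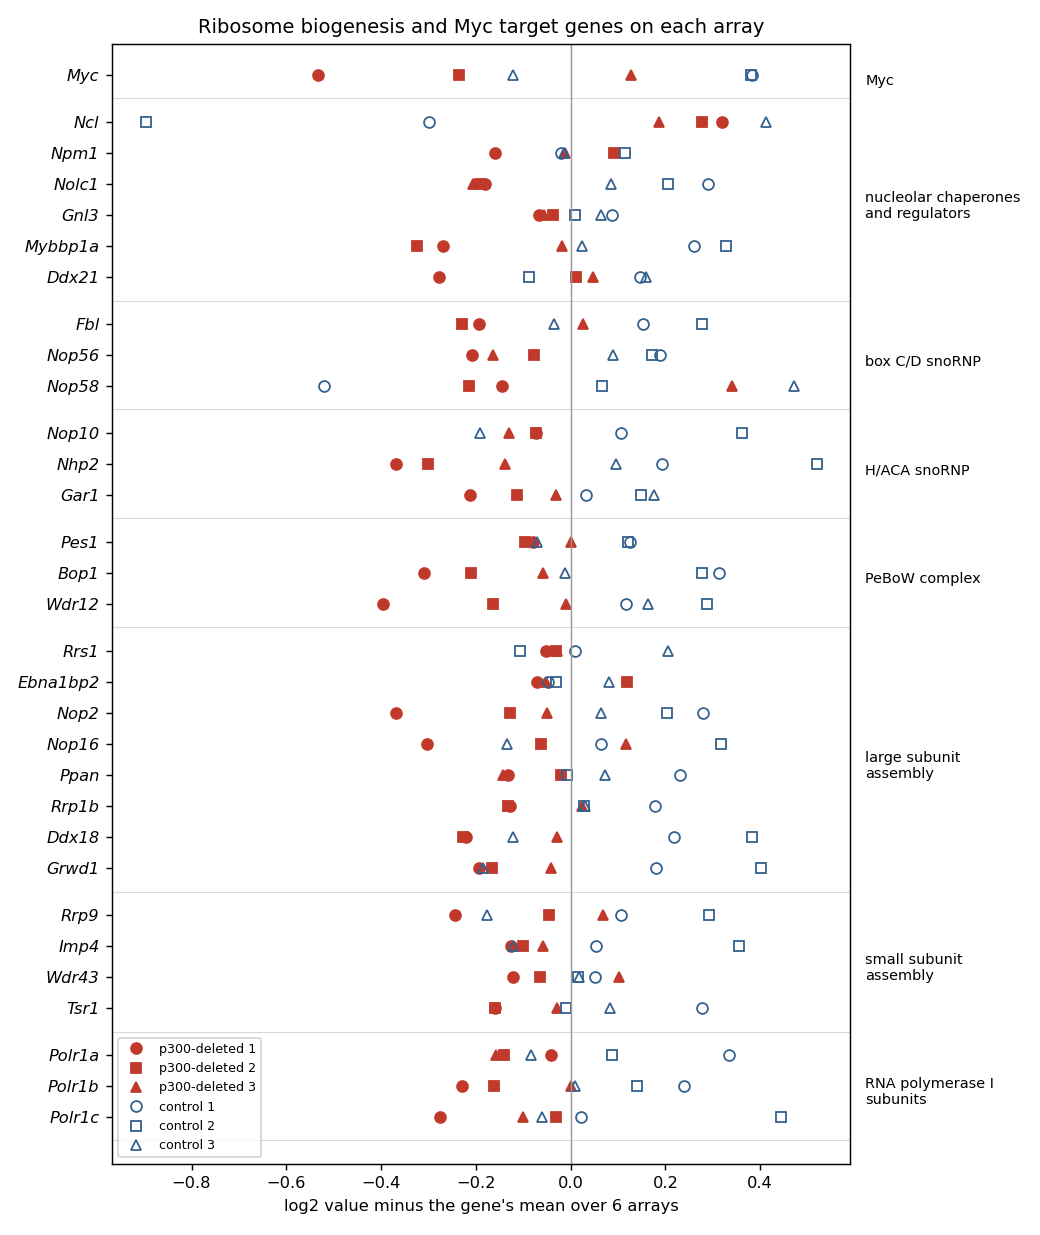
Each row is 1 gene, the horizontal axis is its log2 value minus its own mean over the 6 arrays, filled red symbols are the 3 p300-deleted arrays and open blue symbols the 3 controls. Red symbols lie mostly left of blue ones, Ncl and Nop58 have the widest spread among controls, and the control 3 triangle often sits next to the p300-deleted 3 triangle.

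Myc itself was at 8.22, 8.51 and 8.88 in p300-deleted arrays and at 9.13, 9.13 and 8.63 in controls. Controls 1 and 2 lay above every p300-deleted array, but control 3 lay below p300-deleted 3, so the groups overlapped. The difference was -0.43 (SE 0.20, limma adjusted p = 0.297), with a 95% interval from -0.88 to 0.02, and did not pass. The interval spans a fall of the size of the largest differences in the list as well as no change.

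The nucleolar chaperones and regulators were the least uniform role group, with 5 of 6 tested genes lower, 0 called and a median of -0.13. Nolc1, a phosphoprotein that accompanies snoRNPs, was at 7.67, 7.66 and 7.65 in p300-deleted arrays and at 8.14, 8.06 and 7.94 in controls. Its p300-deleted arrays were nearly equal and all below the controls, with a difference of -0.39 (SE 0.10, limma adjusted p = 0.0988). The 2 dimmer probe sets of Nolc1 gave 0.20 and 0.02, and averaging the 3 Nolc1 probe sets gave -0.06. Mybbp1a, a Myb-binding protein of the nucleolus, was at 9.61, 9.56 and 9.87 against 10.14, 10.21 and 9.91. These groups were separated only by the small gap between p300-deleted 3 and control 3, the difference was -0.41 (SE 0.13, limma adjusted p = 0.156), and a dimmer probe set gave -0.05.

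Gnl3, the nucleolar GTPase nucleostemin, was at 8.82, 8.85 and 8.83 in p300-deleted arrays and at 8.98, 8.90 and 8.95 in controls. The arrays did not overlap, though the difference was only -0.11 (SE 0.09, limma adjusted p = 0.609). Ddx21, an RNA helicase that links transcription by RNA polymerase I to processing, had a difference of -0.15 with overlapping groups. Npm1, nucleophosmin, an abundant histone and ribosome chaperone, was at 12.07, 12.32 and 12.22 against 12.21, 12.35 and 12.22. Its difference of -0.05 (SE 0.11, limma adjusted p = 0.845) lay within the spread of either group, and its second probe set gave 0.37.

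Ncl, nucleolin, which binds ribosomal RNA precursors, was the 1 gene of the list with a higher mean in p300-deleted cells. Its brightest probe set read 11.30, 11.26 and 11.17 in p300-deleted arrays, and in controls 10.68, 10.08 and 11.39. Controls 1 and 2 were low and control 3 was the highest of all 6 arrays, so the groups overlapped and the difference of 0.52 (SE 0.28, limma adjusted p = 0.365) did not pass. Without control 3 it was 0.86 and passed (limma adjusted p = 0.0466). A second Ncl probe set read 9.15, 9.23 and 8.87 against 7.50, 7.71 and 9.18, with controls 1 and 2 low again and a difference of 0.95 (SE 0.39, limma adjusted p = 0.267 over all probe sets). A further one read 8.22, 8.32 and 8.33 against 8.29, 8.66 and 8.37, and its difference was -0.15. The dimmest gave 0.20. The probe sets of Ncl therefore disagreed in sign, and the direction of this gene cannot be read from the array.

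The split of controls seen in Ncl also appeared in measures of RNA composition. Probe sets for 18S ribosomal RNA averaged 7.74, 9.47 and 7.91 in p300-deleted arrays, and in controls 5.68, 6.03 and 8.69. Rpl27a, a ribosomal protein of the large subunit, read 8.49, 9.53 and 8.56 against 6.41, 6.43 and 9.68. In both, as in Ncl, controls 1 and 2 were low and control 3 stood with the p300-deleted arrays. Rpl27a did not stand for ribosomal proteins in general. Relative to each gene's mean, the 43 tested averaged -0.03, 0.05 and 0.01 in p300-deleted arrays. In controls they averaged -0.02, 0.05 and -0.06, without this split. For Gapdh, the signal of the 3' end minus that of the 5' end, which grows as RNA degrades, was 0.09, 0.14 and 0.06 against 0.23, 0.59 and 0.21. The same measure for actin overlapped, at 0.36, 0.43 and 0.29 against 0.40, 0.46 and 0.30. With 18S as a covariate the Ncl difference was 0.13 and that of Myc -0.22, against 0.52 and -0.43 without it. The median of the 31 genes was then -0.17, with 30 lower. The part of RNA quality in these differences was not tested.

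**Figure D2:**
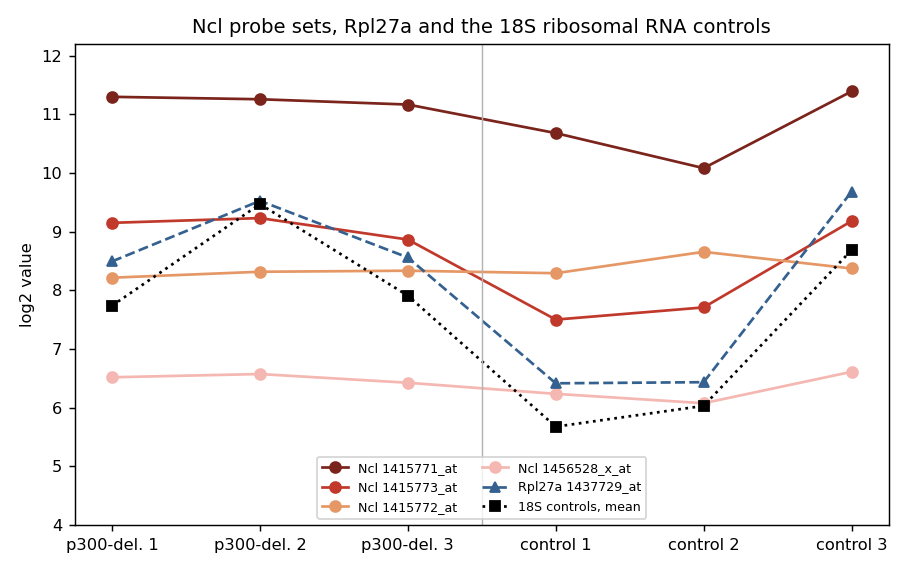
The vertical axis is the log2 value on each of the 6 arrays for the 4 Ncl probe sets, the Rpl27a probe set and the mean of the 18S controls, and a line joins the values of 1 measure. The brightest Ncl probe set, the one that reads 9.15 in p300-deleted 1, Rpl27a and 18S are low in controls 1 and 2 and high in control 3, while the one with a difference of -0.15 stays between 8.22 and 8.66. Levels of different probe sets are not comparable.

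The promoter of Ncl is shown because its brightest probe set was the 1 of 31 with a positive difference, though its probe sets disagree. In its RefSeq window CACGTG was found 0 times. The 250 bases before the start, chr1:86359456-86359705 on the minus strand of GRCm38.p6, have a GC content of 69.6%.
Ncl: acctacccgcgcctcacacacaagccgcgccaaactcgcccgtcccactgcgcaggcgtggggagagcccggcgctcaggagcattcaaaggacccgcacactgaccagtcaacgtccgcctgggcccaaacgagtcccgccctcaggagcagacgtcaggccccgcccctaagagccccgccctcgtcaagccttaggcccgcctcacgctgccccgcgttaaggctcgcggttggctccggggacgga

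The box C/D snoRNP, which methylates ribosomal RNA, had 3 of 3 genes lower, 0 called and a median of -0.26. Nop56, a scaffold of this particle, was at 9.08, 9.21 and 9.13 in p300-deleted arrays and at 9.48, 9.46 and 9.38 in controls. The groups did not overlap, the difference was -0.30 (SE 0.10, limma adjusted p = 0.168), and its second probe set gave -0.32. Fbl, the methyltransferase fibrillarin, had a difference of -0.26 (SE 0.12, limma adjusted p = 0.305), with control 3 below p300-deleted 3. Nop58, the partner scaffold of Nop56, read 9.23, 9.16 and 9.72 against 8.86, 9.44 and 9.85. Its difference of -0.01 had the second largest SE of the list, 0.25, after that of Ncl, so its direction is not settled.

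The H/ACA snoRNP, which converts uridines to pseudouridines, had 3 of 3 tested genes lower, 0 called and a median of -0.24. Nhp2, an RNA-binding core protein of the particle, had the lowest difference of the list. It was at 9.39, 9.46 and 9.62 in p300-deleted arrays and at 9.95, 10.28 and 9.86 in controls, without overlap. The difference was -0.54 (SE 0.14, limma adjusted p = 0.0912), a level 1.45-fold lower, and its second probe set gave -0.55. Gar1, another core protein, was at 8.46, 8.56 and 8.64 against 8.70, 8.82 and 8.85, also without overlap, with a difference of -0.24 (SE 0.10, limma adjusted p = 0.274). Nop10, the smallest core protein, had a difference of -0.18 with overlapping groups.

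The PeBoW complex, a trimer of Pes1, Bop1 and Wdr12 needed to mature the large-subunit RNAs, had 3 of 3 genes lower, 0 called and the lowest median of the role groups with several genes, -0.38. Bop1 was at 7.96, 8.06 and 8.21 in p300-deleted arrays and at 8.58, 8.55 and 8.26 in controls. Wdr12 was at 7.41, 7.64 and 7.80 against 7.92, 8.10 and 7.97. Neither overlapped, with differences of -0.39 (SE 0.13, limma adjusted p = 0.168) for Bop1 and -0.38 (SE 0.13, limma adjusted p = 0.170) for Wdr12. Pes1 was at 8.60, 8.58 and 8.68 against 8.80, 8.80 and 8.61, overlapping in control 3, with a difference of -0.12 (SE 0.10, limma adjusted p = 0.615).

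Among the large subunit assembly factors 8 of 8 tested genes were lower, 0 were called and the median was -0.18. Nop2, an RNA cytosine methyltransferase, was at 7.81, 8.05 and 8.13 in p300-deleted arrays and at 8.46, 8.38 and 8.24 in controls. The arrays did not overlap and the difference was -0.36 (SE 0.12, limma adjusted p = 0.174). The helicase Ddx18 read 8.68, 8.67 and 8.87 against 9.12, 9.28 and 8.78, overlapping only in control 3, with a difference of -0.32 (SE 0.14, limma adjusted p = 0.293). Grwd1, a WD-repeat assembly factor, had a difference of -0.27 and a dimmer probe set at -0.59. Ppan and Rrp1b did not overlap between groups, at differences of -0.20 and -0.16, and of the 2 dimmer probe sets of Rrp1b one was at -0.61 (limma adjusted p = 0.104 over all probe sets) and the other at -0.30. Nop16, Rrs1 and Ebna1bp2 overlapped between groups, at differences of -0.16, -0.07 and -0.0013.

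For Rrs1 the p300-deleted arrays were 8.04, 8.06 and 8.06 and the controls 8.10, 7.99 and 8.30. The p300-deleted arrays thus lay inside the range of the controls. For Ebna1bp2 the 95% interval of the difference was -0.24 to 0.24, so a change as large as the list's median is inside it.

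The small subunit factors had 4 of 4 genes lower, 0 called and a median of -0.17. Tsr1, a GTPase-like factor of late small subunit maturation, was at 6.84, 6.84 and 6.97 in p300-deleted arrays and at 7.28, 6.99 and 7.09 in controls. It was the only one of the 4 without overlap, with a difference of -0.23 (SE 0.11, limma adjusted p = 0.323). Imp4 and Rrp9, components of the U3 particle that starts precursor cleavage, had differences of -0.19 and -0.15, and Wdr43, of the same processome, had -0.06.

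The 3 RNA polymerase I subunits were all lower, with 0 called and a median of -0.26. Polr1b, the second largest subunit, was at 6.55, 6.62 and 6.78 in p300-deleted arrays and at 7.02, 6.92 and 6.79 in controls. Its groups were just apart, p300-deleted 3 and control 3 being almost equal, and the difference was -0.26 (SE 0.11, limma adjusted p = 0.274). Polr1a, the largest subunit, had a difference of -0.23 (SE 0.13), and Polr1c, a subunit shared with RNA polymerase III, of -0.27 (SE 0.15). Both overlapped between groups.

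**Figure D3:**
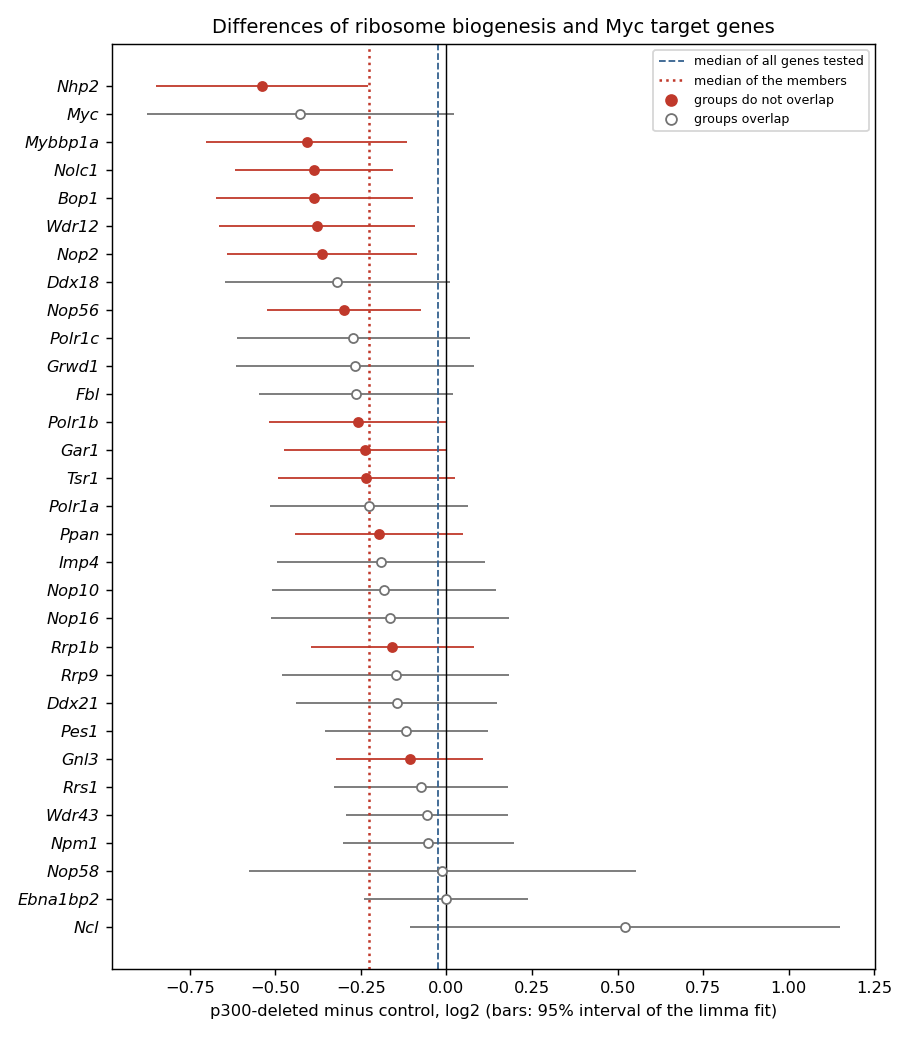
The horizontal axis is the difference between groups on the log2 scale, 1 row per gene sorted by it, and bars are 95% intervals of the limma fit. Filled red points are the 13 genes whose groups do not overlap, the dotted line is the list's median of -0.23 and the dashed line the median of all genes, -0.03.

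The arrays of each group were not alike in this programme. Relative to each gene's mean, the mean of the 31 genes was -0.19, -0.10 and -0.02 in p300-deleted arrays, and in controls 0.12, 0.15 and 0.03. The groups did not overlap, but p300-deleted 3 and control 3 were close. In 18 of the 31 genes control 3 was the lowest control (46.2% of all genes), and in 21 p300-deleted 3 was the highest of its group (37.5% of all genes). Of the 18 genes with overlapping groups, 10, Myc among them, had controls 1 and 2 above every p300-deleted array, so control 3 alone made the overlap.

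Of the 31 genes, 20 had further probe sets, 27 in all. Of these, 20 lay lower and 7 higher in p300-deleted arrays. For 6 of them, in Ncl, Ebna1bp2, Nolc1, Npm1 and Pes1, the sign opposed that of the brightest probe set. Of the 56 probe sets of these genes bright enough to test, 0 passed in limma over all probe sets, where 0.456% of probe sets did, and the lowest adjusted p, 0.104, was that of an Rrp1b probe set.

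The partners and antagonists of Myc lay on both sides of zero. Of 15 tested genes of the Myc network 1 rose, where 0.991% of all genes did, 0 fell and the median was 0.05. The gene that rose was Max, the dimer partner through which Myc binds DNA. Max was at 8.74, 8.99 and 8.60 in p300-deleted arrays and at 7.92, 7.93 and 8.10 in controls, well apart, and it rose by 0.79 (SE 0.13, limma adjusted p = 0.0327). Max kept this call under 8 of 15 alternatives and lost it without any single array other than control 3. The call was also lost with 18S as a covariate (limma adjusted p = 0.123) and with the replicate block (limma adjusted p = 0.0561). Among all probe sets its limma adjusted p was 0.0543. Mxd3, a repressor that competes for Max, named after its values were seen, was at -0.49 (SE 0.18, limma adjusted p = 0.217).

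Myc targets with other tasks also lay mostly lower. Of 55 tested, 45 lay lower (81.8%, against 55.0% of all genes), and the median was -0.15. In limma 1 fell and 0 rose, where 0.726% of all genes fell. In 24 (43.6%) the groups did not overlap in the lower direction, against 13.2% of all genes and 41.9% of the 31 genes. Rcc1, the exchange factor that loads Ran with GTP, was at 6.70, 6.49 and 6.97 in p300-deleted arrays and at 7.51, 7.48 and 7.70 in controls, and fell by 0.84 (SE 0.14, limma adjusted p = 0.0368). Rcc1 was called under 10 of 15 alternatives. It was not called without p300-deleted 1, p300-deleted 2, control 1 or control 2, nor with 18S as a covariate (limma adjusted p = 0.126). Among all probe sets its limma adjusted p was 0.0625. Named after their values were seen, Srm, spermidine synthase, was at -0.56 and Cad, the enzyme that opens pyrimidine synthesis, at -0.50, both with limma adjusted p = 0.0592. Odc1, which supplies Srm with putrescine, was at 0.05, and Eif4e, the cap-binding initiation factor, at 0.59 (limma adjusted p = 0.0790).

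A wider list of 90 further ribosome assembly factors had a smaller median difference. Of these, 61 lay lower (67.8%, against 55.0% of all genes) and 0 passed in limma. By unadjusted p under 0.05, 11 were lower and 5 higher, and the median was -0.08. In 16 genes (17.8%) the groups did not overlap in the lower direction, near the 13.2% of all genes, and in 9 they did not overlap in the higher. The largest differences were upward, Rpf1, a large subunit processing factor, at 0.76 (SE 0.18, limma adjusted p = 0.0808) and Ftsj3, an RNA methyltransferase, at 0.58 (SE 0.16, limma adjusted p = 0.120). The difference between the lists was not tested.

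The ribosomal proteins themselves, the end products of the pathway, stayed near the median of all genes. The list held 80 symbols, of which 43 could be tested. Of the 43, 29 lay lower (67.4%, against 55.0% of all genes), 0 passed in limma and 1 was higher by unadjusted p under 0.05. The median was -0.02. Apart from Rpl27a, which was at 1.35 (SE 0.78, limma adjusted p = 0.409), the largest difference was that of Rps6, 0.33 (SE 0.11, limma adjusted p = 0.188). Of 12 further RNA polymerase I genes 0 passed in limma and 1 was higher by unadjusted p (median 0.00), with Taf1b, of the promoter selectivity factor, at 0.41 and Polr2f, a subunit shared by all 3 polymerases, at -0.22. Of 15 RNA polymerase III genes 0 passed in limma and 1 was lower by unadjusted p (median -0.09), with Polr3g at -0.29 and Gtf3c5 at -0.24.

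**Figure D4:**
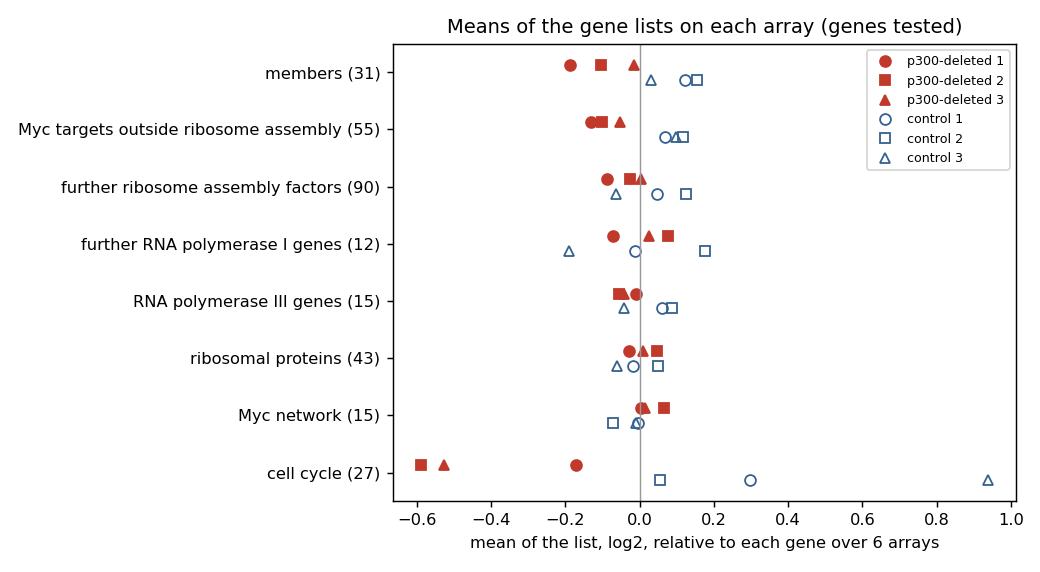
The horizontal axis is the mean of each list on each array, in log2 relative to each gene's own mean, with the number of genes tested in parentheses. The 31 genes (members), the other Myc targets and the cell cycle list separate the groups, with p300-deleted arrays lower. The Myc network separates them in the opposite direction. Ribosomal proteins stay between -0.06 and 0.05, and the cell cycle list has its highest value, 0.94, in control 3.

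Genes of cell division, which run with Myc activity in growing lymphocytes, were mostly lower in p300-deleted cells. Of 27 tested, 26 lay lower (96.3%, against 55.0% of all genes), and the median was -0.93. In limma 6 fell and 0 rose, where 0.726% of all genes fell and 0.991% rose. The mitotic kinase Aurkb fell by 1.38 (SE 0.26, limma adjusted p = 0.0445), the checkpoint kinase Ttk fell by 1.26 (SE 0.23, limma adjusted p = 0.0440), and the mitotic kinesin Kif20a fell by 1.07 (SE 0.16, limma adjusted p = 0.0257). Aurkb was called under 7 of 14 alternatives and Ttk and Kif20a under 9 of 14 each, and all 3 calls were lost without p300-deleted 2, without p300-deleted 3, without control 1 and with 18S as a covariate. Averaged over the list, p300-deleted arrays were at -0.17, -0.59 and -0.53, and controls at 0.30, 0.05 and 0.94. The order within groups was not that of the ribosome genes. Control 3 was the highest control for cell division and the lowest for the 31 genes, and p300-deleted 1 was the highest of its group for cell division and the lowest for the 31 genes.

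Some marker lists of other cell types moved with the groups and others did not. The mean of the 7 plasma cell markers was between 0.24 and 0.78 in p300-deleted arrays and between -0.56 and -0.46 in controls. That of the 6 mast cell and basophil markers was between 0.42 and 1.17 against -0.94 and -0.65. For 6 tested myeloid markers, 0 passed in limma, 4 were higher by unadjusted p under 0.05, and the mean ran from 0.05 to 1.58 against -1.41 to -0.18. In these 3 lists, and in the B cell and NK cell lists that follow, p300-deleted 1 was the highest array. For the 31 genes p300-deleted 1 was the lowest. The 4 tested B cell markers all lay lower without passing, with a median of -0.28, and their means overlapped, from -0.61 to 0.31 against 0.09 to 0.27. Of the 4 NK cell markers Gzma rose by 0.73 (SE 0.14, limma adjusted p = 0.0445) and Nkg7 was at -0.37, and the list's means ran from -0.18 to 0.63 against -0.36 to -0.22. The erythroid gene Alas2 was at -0.69 (limma adjusted p = 0.281), with overlapping groups. Of the myeloid markers Itgam was at 2.65 to 2.89 on all arrays, near the bacterial controls. The part of these cells in the differences above was not tested, and in RNA from a mixed population fewer cells of a type and less RNA per cell cannot be told apart.

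Differences were also set beside the E-box, as a description. The median difference was -0.23 for the 7 genes with it, from -0.41 to -0.06, and -0.20 for 19 tested genes without it, from -0.54 to 0.52. Groups did not overlap in the lower direction for 3 of the 7 and for 9 of the 19. Over all genes tested with a promoter the medians were -0.04 for 850 genes with the motif and -0.02 for 6208 without. Of the 5 lowest genes in the list that had a promoter entry, Mybbp1a and Nop2 held the motif, and Nhp2, Nolc1 and Wdr12 did not.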

How the data were processed

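Values deposited by the authors are on the log2 scale, 1 per probe set, from RMA as the submitters' processing notes name it, with no version stated. RMA subtracts background, makes the arrays' distributions equal and combines probes, so a shift of all RNA in a cell is lost. Array medians were 5.38 to 5.46. Of 22690 probe sets, 20380 had 1 gene symbol, 691 several and 1555 none, and 64 were controls. By gene ID 20351 matched RefSeq (GRCm38.p6). The brightest probe set stood for each of 12393 genes, and the dimmest 30% (mean below 3.91) were left out, which left 8675.

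The 2 groups were tested in limma 3.58.1 (R 4.3.3; lmFit, eBayes), two-sided, over all genes, without covariates, and the fit was tested on simulated data from these genes (20 sets of 200 changed genes). The number of arrays, 3 a group, limits the precision. The genes and lists were chosen with earlier results of these data known. Named genes were Myc, Foxp3, in each role group the gene with the largest difference and the brightest, the 5 highest and 5 lowest of the 31, up to 4 called genes of each further list, or its 2 largest differences where none was called, and others as said. E-box stretches are cut to 30 bases, and the Ncl promoter to the bases before the start. Alternatives were the filter, normalization, probe set mean, variance model, array weights, 18S covariate, replicate block, leaving out each array and a threshold of 0.1.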

Additional observations from a re-analysis of the deposited data

How the results depend on the processing

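The median of the 31 genes stayed between -0.30 and -0.17 over 15 alternatives, and 27 to 30 of the genes lay lower in each. In 26 genes every alternative gave a negative difference. The count of called genes among the 31 was 0 except with array weights, which gave controls 2 and 3 weights of 0.37 and 0.41, with 7 (Nolc1, Mybbp1a, Nop56, Nhp2, Bop1, Nop2 and Tsr1, all lower), at a threshold of 0.1 with 2 (Nhp2 and Nolc1), and with 0 to 1 when each array was left out, the 1 being Ncl, higher without control 3. Over all genes the count of 149 became 1019 with array weights, 399 at 0.1, 95 with the mean of all probe sets, 98 with the replicate block and 15 with 18S as a covariate, and ran from 9 (without control 1) to 230 (without control 3) when each array was left out. Same-numbered arrays of the groups had correlations of deviations of -0.07, 0.12 and -0.12, and differently numbered ones of -0.19 to 0.23. A pairing by number was thus not shown, but with 3 arrays a group these values cannot exclude shared handling. The block called 0 of the 31 genes. Signs turned, with 0 calls, for 4 genes. Nop58 was at 0.020 with further quantile normalization, 0.013 with median centring, 0.29 with array weights and -0.28 to 0.22 without single arrays. Ebna1bp2 was at 0.021, 0.023 and 0.049 in the same order, at 0.0077 with the probe set mean and at -0.061 to 0.038 without single arrays. Npm1 was at 0.16 with the probe set mean and -0.11 to 0.013 without single arrays, and Rrs1 at -0.14 to 0.011. The causes were not tested. The 100-base window held the E-box in 6 genes in place of 7.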
